A study of Mus musculus with 15 samples.

Results

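The Rab GTPases are the largest branch of the Ras superfamily. Each Rab is anchored in the membrane of a particular organelle, switches on when an exchange factor loads GTP, recruits effectors such as tethers and motors, and switches off when a GTPase-activating protein drives GTP hydrolysis. In macrophages and microglia, Rab proteins steer engulfed lipoproteins and dead cells from the plasma membrane through early and late endosomes to the lysosome, and they return receptors to the surface. Rab7 in particular marks the late endosomes and lysosomes from which cholesterol leaves after uptake.

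The Rab genes were taken as every gene symbol made of Rab, digits, an optional letter and an optional ending, with pseudogenes removed. The ending could be a digit, or the letter l with digits. That rule matched 60 genes, and Rab3il1, an exchange factor that fits the letters but is no GTPase, was set aside. The remaining 59 Rab genes, of 54390 genes listed, were sorted by textbook location into 7 compartments. After the filter on low counts, 45 of the 59 were tested and 14 were not.

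RNA was sequenced in bulk from BV2 cells, a mouse microglial line used here as a macrophage model. WT cells (labelled Trem2WT) and Trem2-/- cells (labelled Trem2KO) were cultured overnight in media alone (non-foamy) or with soluble cholesterol at 20 μg/ml (foamy). Non-foamy Trem2-/- cells gave 3 libraries and each of the other groups 4. Per the study's methods, the Trem2-/- cells came from clones isolated by limiting dilution from BV2 cells that stably carried Cas9, so an effect of the gene and a trait of the clone cannot be told apart. The soluble cholesterol was complexed with methyl-beta-cyclodextrin, which media alone lacked, so carrier and cholesterol cannot be told apart either. The labels do not say that libraries of a group came from separate cultures, and the p-values then measure only the spread between these libraries, which may be technical.

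Libraries held 23538963 to 41683825 counts. Trem2 RNA fell but was not lost in the Trem2-/- libraries (log2 fold change −0.67, edgeR adjusted p = 2.85e-07, in non-foamy cells), with 354 ± 41.2 CPM (counts scaled to library size; SD, n = 4) in WT non-foamy against 222 ± 8.79 CPM (n = 3) in Trem2-/- non-foamy cells, and every Trem2-/- library, at 232 CPM or less, lay under every WT library, at 327 CPM or more. All 11 macrophage markers examined reached 1 CPM, but their summed level also differed by genotype, at 6820 to 8440 CPM in WT non-foamy, 7200 to 8720 in WT foamy, 11600 to 12200 in Trem2-/- non-foamy and 11100 to 12300 in Trem2-/- foamy libraries. Of 8 markers of resting microglia, 3 reached 1 CPM, and Sall1 was at 0 counts throughout while Cx3cr1, Olfml3, Siglech and Tmem119 stayed under 1 CPM; their sums were 370 to 416, 418 to 463, 631 to 687 and 578 to 648 CPM in the same order. None of 14 markers of other cell types reached 1 CPM, their sum was at most 1.41 CPM in any library, and Col1a1, Col1a2, Dcn, Epcam and Snap25 were at 0. WT non-foamy replicate 3 stood apart from its group, with the fewest counts of all 15 libraries and 15.5% of counts in ribosomal protein genes against 12.6 to 12.8% in the other WT non-foamy libraries. WT foamy replicate 1 differed as much from the rest of its group, by 18.5 to 43.3 chi-square units per gene against 8.04 to 15.1 among the other 3, and had the lowest ribosomal share of all. That share was 12.4 to 14.9% in WT foamy and 14.9 to 16.1% in the Trem2-/- libraries, and the part of the marker levels and of this share in the genotype results was not tested.

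The cells expressed Rabs of every compartment, but a few genes carried most of the RNA. Compared per length of exon (CPM per kb, averaged over the 15 libraries), Rab7, the GTPase of late endosome and lysosome fusion, and Rab31, which acts between the trans-Golgi network, early endosomes and phagosomes, were highest, at 104 and 102 CPM per kb. The order of their means was not the same in every group. Rab7 led in WT cells (104 against 95.5 non-foamy, 105 against 102 foamy) and Rab31 in Trem2-/- cells (103 against 102, and 108 against 104). Outside WT non-foamy cells the gap was smaller than the larger SD of the pair, so the order there is not firm. That SD was 5.8 CPM per kb in WT foamy, 4.15 in Trem2-/- non-foamy and 6.5 in Trem2-/- foamy cells. Next came Rab1a at 75.5 and Rab1b at 67.6, both of ER to Golgi transport, on either side of Rab5c at 69.8, a GTPase of early endosome fusion. The ranges of these 3 overlapped across libraries. Rab9, which returns mannose 6-phosphate receptors from late endosomes to the Golgi, stood at 64.4, but its place depended on genotype: at 50.9 and 53.0 in the WT groups it was below all 3, and at 77.6 and 79.5 in the Trem2-/- groups it was level with Rab1a (76.9 and 77.2). The 5 highest genes made up 48.5% and the 10 highest 71.7% of the summed level of all Rab genes.

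At the other end, 19 Rab genes averaged under 1 CPM, 5 of which passed the filter. Rab27b, Rab38, Rab42 and Rab9b had 0 counts in every library, which allows up to 0.072 to 0.127 CPM depending on the library, by counting error alone. Rab38 and Rab32 are close relatives that act on melanosomes and other lysosome-related organelles, and here only Rab32 was detected. Rab27a, a regulator of secretory granule docking, had 18 counts in all, spread over 5 libraries. Rab25, Rab3b, Rab3c, Rab26, Rab36, Rab39b and Rab40b had 1 to 46 counts in total over the 15 libraries. These are Rabs of epithelial recycling, of regulated secretion and of neurons among others, and no comparison is given for them.

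**Figure D1:**
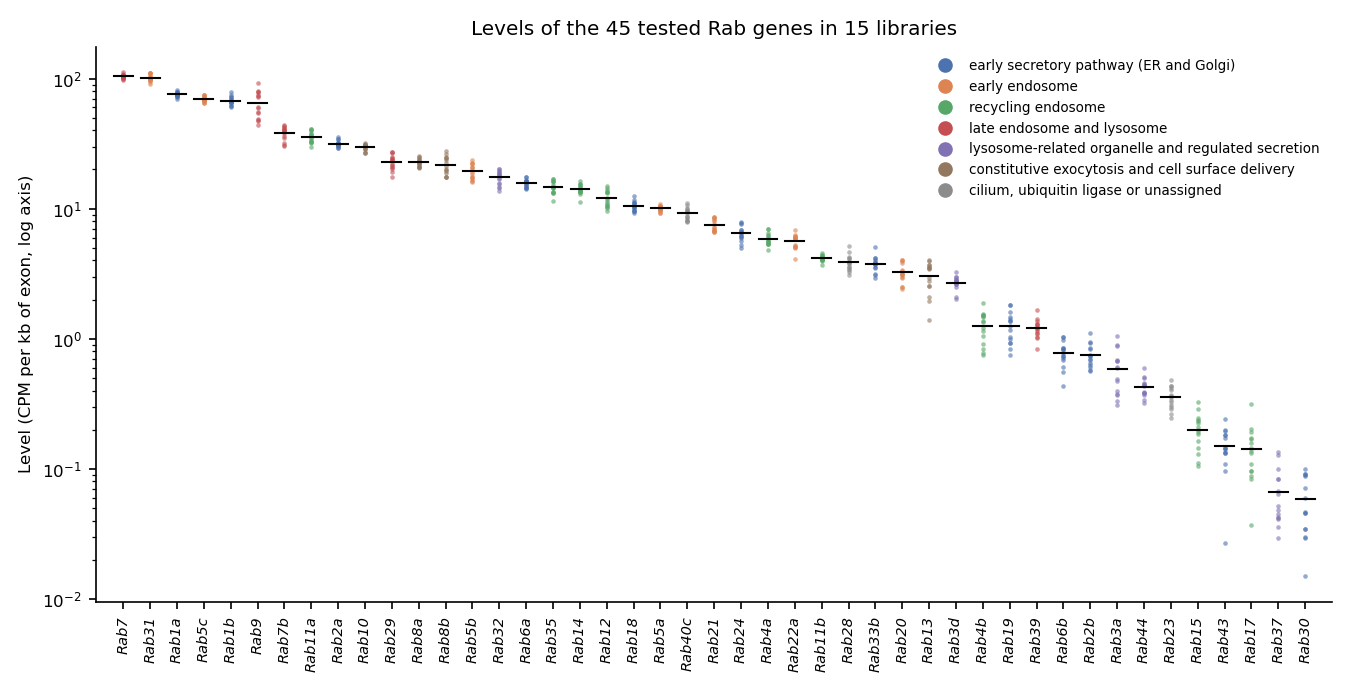
Level of each of the 45 tested Rab genes (x axis, ordered by level) in CPM per kb of exon on a log y axis; each point is a library, coloured by compartment, and the bar is the mean of 15 libraries. Rab7 and Rab31 top the order at 104 and 102 CPM per kb, and the 10 highest genes hold 71.7% of the summed level.

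The makeup of the Rab pool by compartment was measured as each compartment's share of the summed level per kb, which does not depend on how libraries are scaled. Early secretory Rabs gave 26.3 ± 0.531% of the pool in WT non-foamy cells (SD, n = 4), 25.0 ± 0.211% in WT foamy, 23.9 ± 0.219% in Trem2-/- non-foamy (n = 3) and 24.2 ± 0.197% in Trem2-/- foamy cells. Every Trem2-/- library had a lower early secretory share than every WT library. A share can fall because other parts of the pool rise. With TMM scaling the summed early secretory level was 215, 209, 215 and 218 CPM per kb in the same order, not lower in Trem2-/- cells. Such levels, unlike shares, depend on scaling. Late endosomal and lysosomal Rabs gave 25.5 ± 1.11%, 26.2 ± 0.696%, 27.5 ± 0.641% and 27.8 ± 0.764% in the same order. Their range in Trem2-/- foamy libraries, 27.0 to 28.9%, lay above that in WT foamy libraries, 25.2 to 26.8%. In non-foamy cells the ranges, 24.9 to 27.2% in WT and 26.8 to 28.0% in Trem2-/-, overlapped. With TMM scaling this compartment summed to 219 CPM per kb in WT foamy and 251 in Trem2-/- foamy cells. Most of that gap lay in Rab9, at 53.0 and 79.5. Rab7, its largest member, was at 105 and 104, Rab7b at 38.5 and 41.0, and Rab29 at 21.7 and 25.5. In non-foamy cells the sums were 209 and 248, with Rab9 at 50.9 and 77.6 and Rab7b at 32.0 and 43.1. Early endosomal Rabs held 24.7 to 25.6% and recycling Rabs 10.1 to 10.5% of the pool in the mean of every group. Rabs of lysosome-related organelles and regulated secretion held 2.21 ± 0.115% in WT non-foamy cells and 2.49 to 2.58% in the means of the other groups. No test was run on these shares, because they were summed over genes chosen with earlier results known.

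The summed level of all Rab genes depended on scaling. With TMM factors it was 818 ± 8.02 CPM per kb in WT non-foamy and 901 ± 4.12 in Trem2-/- non-foamy cells, 837 ± 23.3 in WT foamy and 904 ± 29.7 in Trem2-/- foamy cells. With total counts alone it was 855 ± 37.5, 855 ± 11.6, 873 ± 28.1 and 862 ± 27.8 in that order, so no genotype shift of the whole pool remained. In the genotype comparisons that follow, scaling by total counts moved the median log2 fold change of all genes to −0.13 in non-foamy and −0.13 in foamy cells, from 0.02 and 0.00 with TMM. Changes of single Rabs are therefore given relative to the bulk of genes, and each call that scaling by total counts removed is named.

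The DNA upstream of the Rab genes was searched for short motifs that macrophage, lysosomal and sterol regulators are known to bind. RefSeq promoter windows (GRCm38.p6, 250 bases before each start) were found for 48 of the 59 Rab genes, 60 windows in all, and compared with 32817 windows of all genes. Each motif was sought on both strands. The sequences are shown for 3 Rab genes whose level differed between the genotypes, Rab11a, Rab32 and Rab21, and for Rab5a, which carries the same lysosomal motif as Rab21. Capitals mark the motif matches, 5′ to 3′ on the strand of the gene.
Rab11a, chr9:64737757-64738006, minus strand: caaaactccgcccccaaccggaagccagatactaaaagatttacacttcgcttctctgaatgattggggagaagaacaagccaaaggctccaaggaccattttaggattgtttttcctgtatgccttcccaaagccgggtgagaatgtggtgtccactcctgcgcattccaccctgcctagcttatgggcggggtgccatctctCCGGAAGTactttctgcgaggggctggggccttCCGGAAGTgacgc
Rab32, chr10:10558208-10558457, minus strand: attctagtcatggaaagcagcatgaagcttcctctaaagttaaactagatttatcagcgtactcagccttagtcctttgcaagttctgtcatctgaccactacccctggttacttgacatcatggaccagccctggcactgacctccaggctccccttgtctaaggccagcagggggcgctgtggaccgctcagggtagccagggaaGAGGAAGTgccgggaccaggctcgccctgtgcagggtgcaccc
Rab21, chr10:115315592-115315841, minus strand: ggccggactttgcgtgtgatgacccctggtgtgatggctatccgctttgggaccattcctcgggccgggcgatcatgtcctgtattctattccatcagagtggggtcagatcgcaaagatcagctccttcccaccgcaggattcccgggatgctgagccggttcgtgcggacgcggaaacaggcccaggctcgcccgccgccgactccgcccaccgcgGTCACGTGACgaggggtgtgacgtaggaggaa
Rab5a, chr17:53478984-53479233, plus strand: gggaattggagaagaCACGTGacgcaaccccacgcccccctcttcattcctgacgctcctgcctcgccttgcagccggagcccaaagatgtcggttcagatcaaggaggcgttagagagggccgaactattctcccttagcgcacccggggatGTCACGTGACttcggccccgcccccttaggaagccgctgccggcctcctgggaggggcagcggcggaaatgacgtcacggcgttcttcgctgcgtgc

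In the Rab11a window, CCGGAAGT, bound by ETS factors, occurs at 46 and again at 13 bases before the start. That motif was in 2.88% of all windows and 2 of the 60 Rab windows, the other being that of Rab24. Rab32 carries GAGGAAGT, the purine-rich site of the myeloid factor PU.1, 43 bases upstream, a motif found in 2.44% of all windows and in 2 Rab windows, with Rab2b. The CLEAR element of lysosomal gene control, CACGTG with GT before it and AC after it, stands 32 bases before the start in Rab21 and 97 bases before it in Rab5a. Of all windows 0.241% hold it, and its core CACGTG, which lies inside it, is in 6.02% of all windows and in 5 Rab windows (Rab5a, Rab20, Rab21, Rab23 and Rab27a). In Rab5a a further copy of the core lies near the far end of the window. The sterol element TCACNCCAC (1.05% of all windows) and the LXR repeat, AGGTCA repeated after a spacer of 4 bases (0.0152%), matched no Rab window. Rab windows were richer in G and C than windows at large, with a median of 60.2% against 52.4%. A match describes letters only, and no binding was measured.

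In media alone, 11 Rab genes were higher and 5 lower in Trem2-/- than in WT cells (edgeR quasi-likelihood test, Benjamini-Hochberg adjusted p under 0.05). This is 35.6% of the 45 tested Rabs, beside 43.6% of all 14237 genes tested (21.0% higher and 22.6% lower), a share below that of genes at large. Their median log2 fold change was 0.11, against 0.02 for all genes, and their median absolute change was 0.23 against 0.32. Scaling by total counts gave 8 higher and 8 lower, beside 1820 higher and 4379 lower of all genes. It turned the members' median to −0.03, against −0.13 for all genes. Since the RNA came from bulk cultures, fewer cells of a kind and less RNA per cell cannot be told apart. For 16 of the 45 Rabs the libraries of the genotypes lay wholly apart, beside 46.1% of all genes. In the foamy state, 5 Rabs were higher and 1 lower in Trem2-/- cells, or 13.3% of those tested beside 30.2% of all genes (14.3% higher and 15.9% lower). Groups stood wholly apart for 11 Rabs, beside 28.8% of all genes. With total counts the foamy split became 3 higher and 8 lower, beside 1115 higher and 3666 lower of all genes. All 6 Rabs called in the foamy state were also called in the non-foamy state with the same sign. The 6 are 37.5% of the non-foamy calls, and calls shared by both states were not counted for all genes. These comparisons share no library, but both set Trem2-/- against WT cells and came from a single fit with a shared estimate of spread.

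Of the 5 tested Rabs of late endosomes and lysosomes, 2 were higher in non-foamy and 1 in foamy Trem2-/- cells, and none was lower. Of all genes, 21.0% were higher and 22.6% lower in non-foamy cells, and 14.3% and 15.9% in foamy cells. The small counts per compartment, here and below, were not tested against those shares. Rab9 was higher in both states. Rab9 (chrX:166457253-166479867, minus strand) stood at 84.6, 85.0, 105 and 81.8 CPM in WT non-foamy, 77.1, 96.5, 103 and 94.4 in WT foamy, 138, 141 and 128 in Trem2-/- non-foamy, and 138, 126, 131 and 161 in Trem2-/- foamy libraries. All Trem2-/- libraries lay above all WT libraries, with or without cholesterol. The log2 fold change was 0.61 (standard error, SE, 0.10, adjusted p = 2.03e-05) in non-foamy and 0.58 (SE 0.09, adjusted p = 3.32e-05) in foamy cells, and it was called under all 14 and all 15 alternatives respectively. Of the 50-base stretches of Rab9 exons, 6.2% also occur in Rab9b-ps1, a pseudogene of Rab9b.

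Rab7b (chr1:131688695-131715439, plus strand), a relative of Rab7 that carries cargo from late endosomes back to the trans-Golgi network, was the only member called for genotype, for cholesterol and for the interaction of both. It measured 141, 148, 161 and 142 CPM in WT non-foamy, 176, 183, 184 and 168 in WT foamy, 205, 194 and 199 in Trem2-/- non-foamy, and 190, 186, 186 and 197 in Trem2-/- foamy libraries. WT non-foamy libraries were lowest, WT foamy libraries lay between, and the Trem2-/- libraries were highest with no overlap to either WT group. Against WT non-foamy, Trem2-/- non-foamy cells were higher by 0.43 on the log2 scale (SE 0.06, adjusted p = 4.83e-06). In the foamy state the difference was 0.09 (SE 0.06) and did not pass (adjusted p = 0.227), and with total counts it turned to −0.04. The genotype, cholesterol and interaction calls of Rab7b thus all used the same WT non-foamy libraries. The cholesterol response in Trem2-/- cells, which did not use them, was not called either (−0.07, SE 0.06, edgeR adjusted p = 0.894).

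Rab7 itself was not called with TMM scaling. Its level was 266, 280, 273 and 267 CPM in WT non-foamy, 263, 285, 271 and 279 in WT foamy, 268, 262 and 266 in Trem2-/- non-foamy, and 292, 279, 259 and 256 in Trem2-/- foamy libraries. The groups overlapped throughout, and the genotype log2 fold changes were −0.03 (SE 0.06, adjusted p = 0.687) and −0.02 (SE 0.06, adjusted p = 0.871). With total counts the non-foamy value became −0.17 and was called (adjusted p = 0.0274). The share of Rab7b in the summed level per kb of Rab7 and Rab7b, which is free of scaling, went from 23.5 ± 0.934% in WT non-foamy to 29.8 ± 0.354% in Trem2-/- non-foamy cells, with 26.8 ± 1.03% in WT foamy and 28.3 ± 1.53% in Trem2-/- foamy cells. Rab29, which recruits the kinase Lrrk2 to lysosomes and the Golgi, had log2 fold changes of 0.23 (SE 0.11, adjusted p = 0.0844) and 0.23 (SE 0.10, adjusted p = 0.0719), and passed in non-foamy cells without WT non-foamy replicate 3 (adjusted p = 0.017) or Trem2-/- non-foamy replicate 3 (0.0428) and in foamy cells without WT foamy replicate 4 (0.0292). Of the Rab7 exon stretches of 50 bases, 12.7% also occur in other genes, such as the pseudogene Rab7-ps1.

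**Figure D2:**
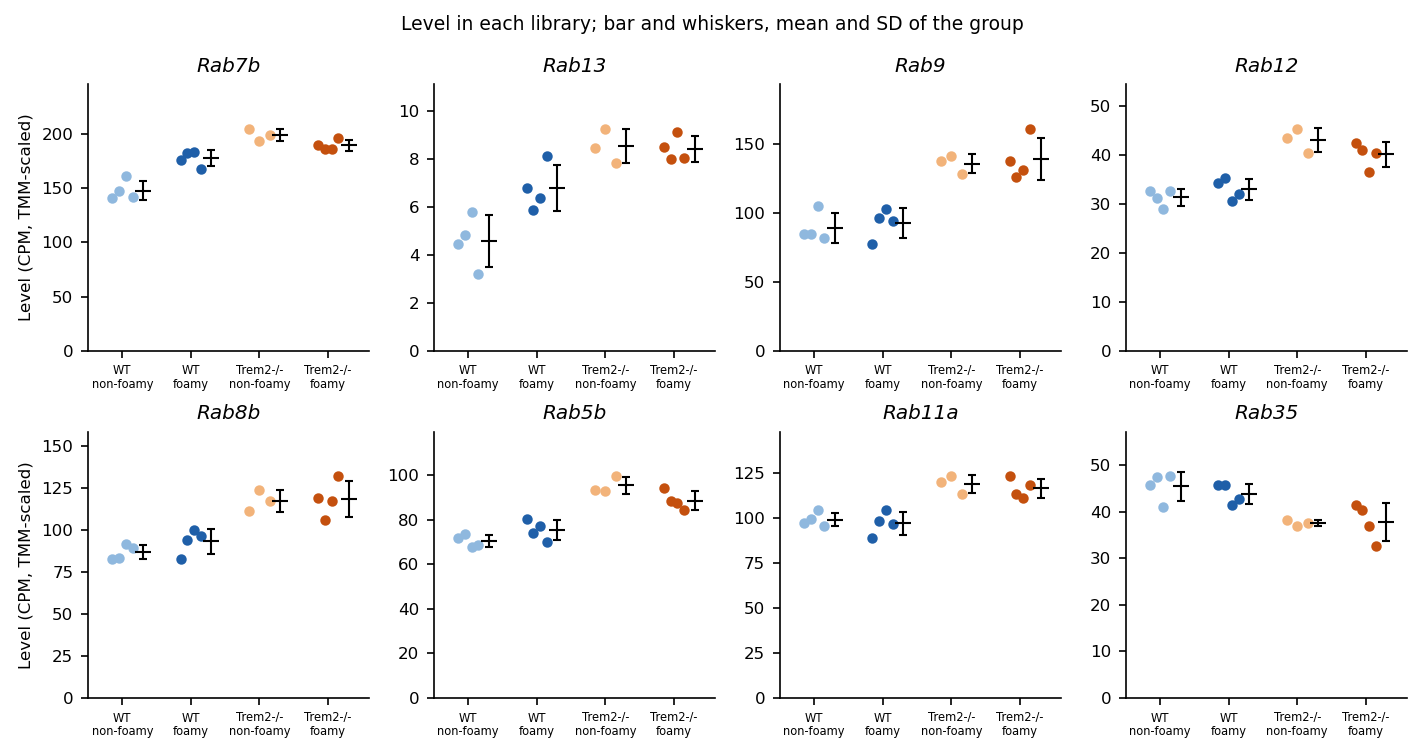
Level of 8 Rab genes in each library (y axis, CPM with TMM scaling, from 0) by group (x axis); points are libraries, and the bar with whiskers is the group mean and SD. Rab9, Rab12, Rab8b, Rab5b and Rab11a are higher and Rab35 lower in every Trem2-/- library than in every WT library of the same state, while Rab7b and Rab13 also differ between WT non-foamy and WT foamy libraries.

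Among 7 early endosomal Rabs, 2 rose and 1 fell in non-foamy Trem2-/- cells and 1, Rab5b, rose in foamy cells. Of all genes, 43.6% were called in non-foamy and 30.2% in foamy cells. Rab5a and Rab5c, the close relatives of Rab5b, were not called. Rab5b (chr10:128677175-128696264, minus strand), which like Rab5a and Rab5c drives early endosome fusion, was at 71.7, 73.6, 67.8 and 68.7 CPM in WT non-foamy, 80.3, 74.1, 77.2 and 70.0 in WT foamy, 93.5, 93.1 and 99.6 in Trem2-/- non-foamy, and 94.2, 88.2, 87.7 and 84.2 in Trem2-/- foamy libraries. Every Trem2-/- library was above every WT library. The log2 fold change was 0.44 (SE 0.06, adjusted p = 6.5e-06) in non-foamy and 0.23 (SE 0.06, adjusted p = 0.00433) in foamy cells, the latter lost with total counts (0.10, adjusted p = 0.311). Its share of the 3 Rab5 genes measured 17.3 ± 0.962% and 22.1 ± 0.52% in the non-foamy genotypes and 18.6 ± 1.41% and 20.8 ± 0.623% in the foamy ones. Rab5c, the most abundant of the 3, averaged 154 ± 5.52 CPM in WT non-foamy and 153 ± 10.4 in Trem2-/- non-foamy cells. Rab5a averaged 52.7 ± 3.1 and 55.0 ± 1.96 CPM. Of the Rab5b exon stretches of 50 bases, 9.8% are shared with a predicted gene, Gm13991.

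Rab31, the most abundant early endosomal Rab, measured 369, 380, 349 and 359 CPM in WT non-foamy, 387, 418, 372 and 371 in WT foamy, 374, 402 and 400 in Trem2-/- non-foamy, and 418, 421, 387 and 417 in Trem2-/- foamy libraries. The groups overlapped in every comparison, and no test passed, with genotype log2 fold changes of 0.11 (SE 0.06, adjusted p = 0.179) and 0.08 (SE 0.06, adjusted p = 0.291). Its relative Rab22a rose in non-foamy Trem2-/- cells by 0.38 (SE 0.09, adjusted p = 0.00123), from 35.1 ± 3.65 to 45.8 ± 3.37 CPM, and that call was lost with total counts (adjusted p = 0.107). Rab21, which binds integrins and moves them through early endosomes, went the other way and fell by 0.34 (SE 0.07, adjusted p = 0.000532), from 42.9 ± 0.518 to 33.9 ± 0.866 CPM. In foamy cells its difference was −0.13 (adjusted p = 0.141). Rab21 and Rab5a both hold the CLEAR element printed above, and of the pair Rab21 was called and Rab5a was not.

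Of the 9 tested recycling Rabs, 3 rose and 1 fell in non-foamy Trem2-/- cells, where 43.6% of all genes were called. Rab11a (chr9:64715299-64737758, minus strand), the Rab of slow recycling through the perinuclear compartment, stood at 96.8, 99.2, 104 and 95.5 CPM in WT non-foamy, 88.6, 98.3, 104 and 96.7 in WT foamy, 120, 123 and 113 in Trem2-/- non-foamy, and 123, 113, 111 and 118 in Trem2-/- foamy libraries. No Trem2-/- library overlapped a WT library. The log2 fold change was 0.26 in both states (SE 0.07, adjusted p = 0.00191 non-foamy; SE 0.06, adjusted p = 0.00169 foamy), and with total counts the non-foamy value was 0.12 and not called (adjusted p = 0.0584). Its relative Rab11b was not called (0.06, adjusted p = 0.594, and −0.02, adjusted p = 0.896), and held 10.8 ± 0.874% and 9.54 ± 0.714% of the summed level per kb of the pair in the non-foamy genotypes, with overlapping libraries.

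Rab12 (chr17:66494512-66519729, minus strand), which sends the transferrin receptor from recycling endosomes to degradation, was at 32.6, 31.1, 28.9 and 32.7 CPM in WT non-foamy, 34.2, 35.3, 30.5 and 32.0 in WT foamy, 43.5, 45.3 and 40.4 in Trem2-/- non-foamy, and 42.5, 41.0, 36.5 and 40.3 in Trem2-/- foamy libraries. Again the genotypes did not overlap. The log2 fold changes were 0.46 (SE 0.08, adjusted p = 3.94e-05) and 0.28 (SE 0.07, adjusted p = 0.0044), the latter lost with total counts (adjusted p = 0.197). Rab14, of phagosomes and endosome to Golgi transport, rose in non-foamy cells by 0.27 (SE 0.07, adjusted p = 0.00422), a call lost with total counts (adjusted p = 0.277).

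Rab35 (chr5:115631908-115647736, plus strand), which returns receptors quickly from early endosomes to the surface and acts at the phagocytic cup, was the only Rab called lower in both states with TMM scaling; with total counts Rab2a, Rab21, Rab24, Rab28 and Rab30 were as well. Its levels were 45.7, 47.4, 40.9 and 47.6 CPM in WT non-foamy, 45.6, 45.7, 41.4 and 42.6 in WT foamy, 38.2, 36.9 and 37.6 in Trem2-/- non-foamy, and 41.3, 40.3, 36.9 and 32.5 in Trem2-/- foamy libraries. WT foamy replicate 3, at 41.4 CPM, and Trem2-/- foamy replicate 1, at 41.3 CPM, were nearly level, so the foamy groups only just stood apart. The log2 fold changes were −0.27 (SE 0.08, adjusted p = 0.00831) and −0.22 (SE 0.07, adjusted p = 0.0317). The foamy call was lost without WT foamy replicate 1 (adjusted p = 0.0735) or 2 (0.0887) and without Trem2-/- foamy replicate 3 (0.0744) or 4 (0.12), and also when only the foamy libraries were fitted (0.0565).

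Of 4 Rabs of delivery to the cell surface, Rab8b and Rab13 rose in non-foamy Trem2-/- cells and Rab8b rose in foamy cells. Calls covered 43.6% of all genes in non-foamy and 30.2% in foamy cells. Rab8b (chr9:66843664-66919687, minus strand), of transport from the Golgi and recycling endosomes to the plasma membrane, was at 82.8, 83.3, 91.5 and 89.5 CPM in WT non-foamy, 82.7, 94.1, 99.9 and 96.2 in WT foamy, 111, 124 and 117 in Trem2-/- non-foamy, and 119, 106, 117 and 132 in Trem2-/- foamy libraries. All Trem2-/- libraries exceeded all WT libraries. The rise was 0.44 on the log2 scale (SE 0.08, adjusted p = 6.33e-05) in non-foamy and 0.35 (SE 0.07, adjusted p = 0.000604) in foamy cells, and it was called under every alternative except the minimum fold change, which it did not reach. Of its exon stretches of 50 bases, 5.46% also occur in other genes. Rab8a, its near twin, averaged 102 ± 4.96 CPM in WT non-foamy and 112 ± 1.83 in Trem2-/- non-foamy cells and was not called (adjusted p = 0.109). The share of Rab8b in the summed level of the pair was 45.7 ± 2.34% and 50.9 ± 1.72% in the non-foamy genotypes and 47.6 ± 1.55% and 51.5 ± 3.41% in the foamy ones.

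Rab10, which brings Toll-like receptor 4 and glucose transporters to the surface, is the highest of these Rabs per kb of exon. In CPM it averaged 104 over the 15 libraries, against 106 for Rab8a. Rab10 stood at 101, 101, 94.4 and 111 CPM in WT non-foamy, 106, 112, 107 and 107 in WT foamy, 108, 108 and 109 in Trem2-/- non-foamy, and 108, 96.3, 94.0 and 102 in Trem2-/- foamy libraries. Groups overlapped in every comparison and no test passed with TMM scaling; with total counts it was called lower in foamy Trem2-/- cells (−0.24, adjusted p = 0.00977). Rab13 (chr3:90213695-90226385, plus strand), best known for delivering tight junction proteins, was low, at 4.46, 4.83, 5.81 and 3.21 CPM in WT non-foamy, 6.79, 5.89, 6.39 and 8.13 in WT foamy, 8.49, 9.27 and 7.85 in Trem2-/- non-foamy, and 8.51, 8.01, 9.15 and 8.06 in Trem2-/- foamy libraries. WT non-foamy libraries lay below all others. In non-foamy cells the genotype log2 fold change of Rab13 was 0.92 (SE 0.16, adjusted p = 4.4e-05), the greatest rise of a called Rab. In foamy cells it was 0.31 (SE 0.14, adjusted p = 0.0987), with WT foamy replicate 4 inside the Trem2-/- range, and without that library it passed (0.41, adjusted p = 0.0478).

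Rab32 (chr10:10545002-10558265, minus strand), of lysosome-related organelles and defence against intracellular bacteria, was at 36.1, 33.6, 34.5 and 31.9 CPM in WT non-foamy, 36.8, 40.5, 39.8 and 42.2 in WT foamy, 42.3, 46.9 and 45.3 in Trem2-/- non-foamy, and 47.2, 44.9, 43.3 and 43.7 in Trem2-/- foamy libraries. WT non-foamy libraries were lowest and both Trem2-/- groups were highest, without overlap with the WT group of the same state. The log2 fold change was 0.40 (SE 0.07, adjusted p = 7.06e-05) in non-foamy cells, and the foamy value of 0.17 (SE 0.07) missed the threshold (adjusted p = 0.051), which it passed without WT foamy replicate 4 (adjusted p = 0.0421), by DESeq2 (0.0357) and with at least 10 counts required in every library (0.0378).

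Rab40c, which joins a Cullin-5 ubiquitin ligase through its SOCS box, was at 24.5, 26.2, 24.7 and 25.0 CPM in WT non-foamy, 29.5, 25.1, 28.9 and 26.8 in WT foamy, 31.0, 32.9 and 34.1 in Trem2-/- non-foamy, and 29.9, 29.9, 31.3 and 27.1 in Trem2-/- foamy libraries. The non-foamy genotypes stood apart, with a rise of 0.38 (SE 0.08, adjusted p = 0.000417), whereas the foamy genotypes overlapped and the difference was 0.10 (SE 0.07, adjusted p = 0.33). Rab28, a ciliary Rab, fell in non-foamy Trem2-/- cells by 0.32 (SE 0.12, adjusted p = 0.0342), from 19.6 ± 2.63 to 15.7 ± 1.77 CPM. That call was lost without WT non-foamy replicate 3 (adjusted p = 0.113) and without Trem2-/- non-foamy replicate 1 (0.171) or 2 (0.0844).

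Few early secretory Rabs were called for genotype, beside 43.6% of all genes in non-foamy and 30.2% in foamy cells. Rab1a (chr11:20201432-20226856, plus strand) was at 290, 277, 272 and 286 CPM in WT non-foamy, 264, 287, 282 and 293 in WT foamy, 299, 298 and 280 in Trem2-/- non-foamy, and 301, 282, 280 and 311 in Trem2-/- foamy libraries. Its groups overlapped and its genotype log2 fold changes were 0.05 (SE 0.06, adjusted p = 0.503) and 0.06 (SE 0.06, adjusted p = 0.473). By edgeR, none of the 12 tested early secretory Rabs rose and 2 fell in non-foamy Trem2-/- cells, and none was called in foamy cells; with total counts 4 and 3 were lower. Rab2b, a Golgi Rab related to Rab2a, stood at 0.49 (SE 0.20, adjusted p = 0.051) in non-foamy cells with overlapping groups, and was called higher in 5 of 14 alternatives, DESeq2 among them (adjusted p = 0.0402) and those without WT non-foamy replicate 3 (0.0185) or Trem2-/- non-foamy replicate 1 (0.0258); 64.0% of its exonic bases overlap other genes on the other strand, Tox4 among them. Rab24, linked to autophagy, fell by 0.31 (SE 0.11, adjusted p = 0.0292), but 62.4% of its exonic bases overlap Prelid1 on the other strand. The counting is not stated to use strand, and the groups overlapped in CPM. The Rab24 call was lost without WT non-foamy replicate 1 (adjusted p = 0.0776) or 2 (0.0708) and without Trem2-/- non-foamy replicate 1 (0.0975) or 2 (0.17). The call for Rab30, a Golgi Rab, was at −1.22 (SE 0.48, adjusted p = 0.0433) and rested on 0.144 to 0.88 CPM, with overlapping groups, and it held in 6 of 13 alternatives, being lost without WT non-foamy replicate 2 or 3 or any of the 3 Trem2-/- non-foamy libraries (adjusted p of 0.0523 to 0.167).

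**Figure D3:**
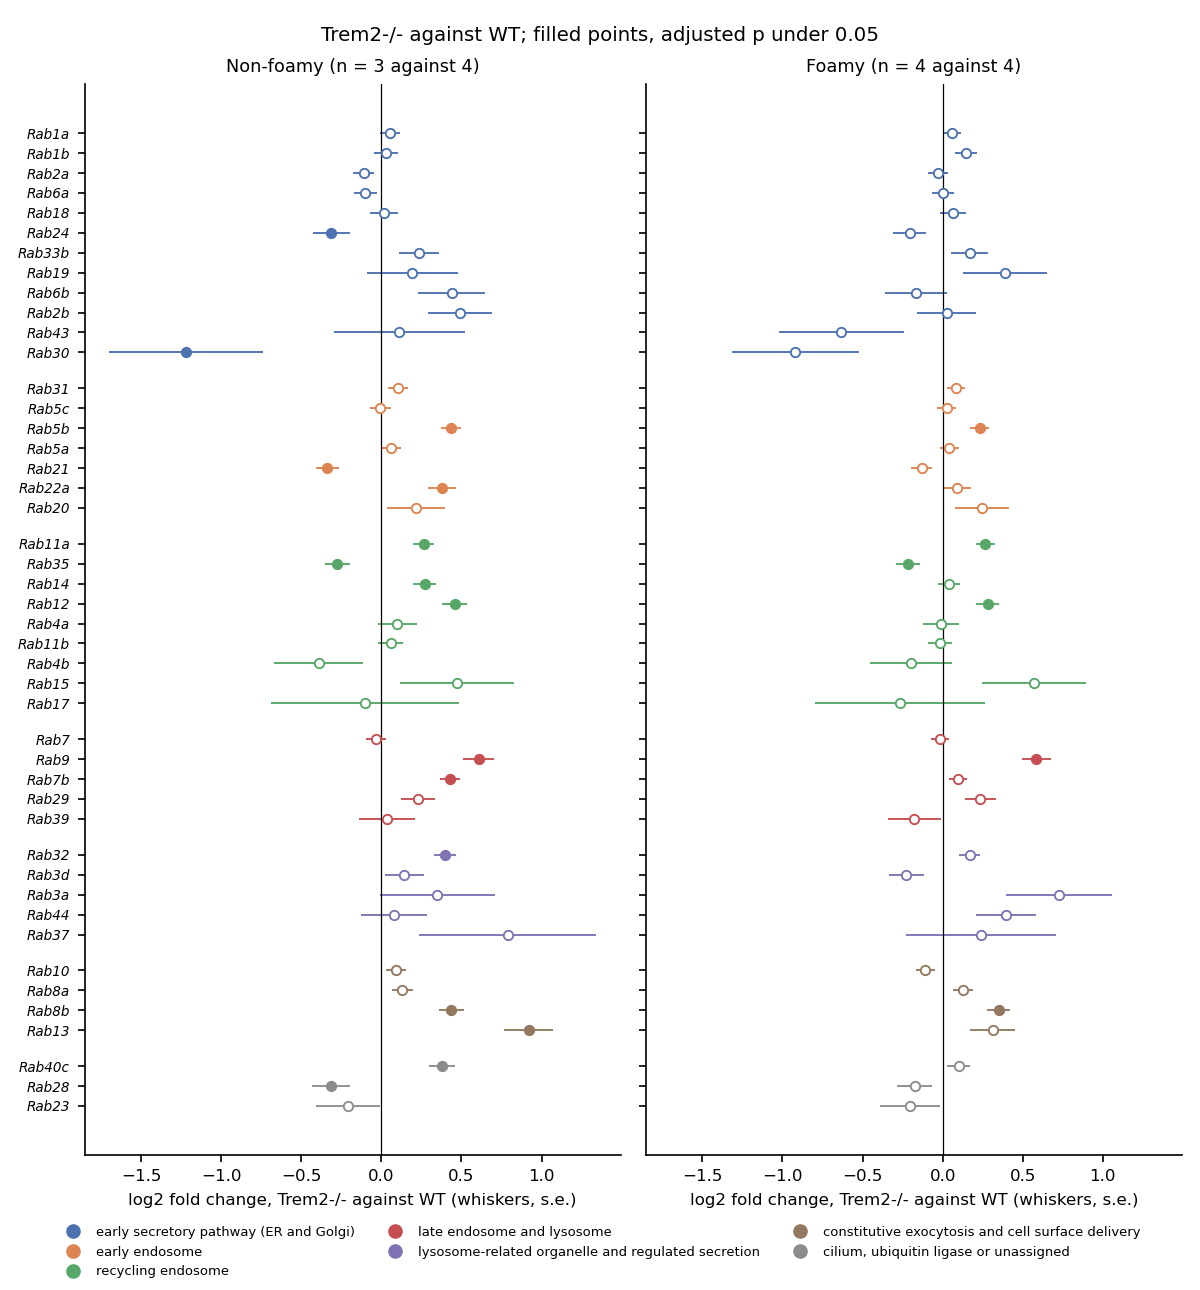
Log2 fold change of Trem2-/- against WT (x axis; whiskers, SE) for the 45 tested Rab genes (y axis, grouped and coloured by compartment) in non-foamy cells at left and foamy cells at right; filled points have an adjusted p under 0.05. The 16 filled points at left reduce to 6 at right, and all 6 keep their sign.

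Cholesterol loading of WT cells raised 2 Rab genes, Rab7b and Rab13, and lowered none. This is 4.44% of the 45 tested, beside 2.8% of all genes (1.66% higher and 1.14% lower). The median log2 fold change of the Rabs was 0.04, against 0.01 for all genes. Rab7b rose by 0.26 (SE 0.06, adjusted p = 0.0121) and Rab13 by 0.59 (SE 0.15, adjusted p = 0.0286), with foamy libraries above non-foamy libraries in both genes, as listed above. The libraries did not overlap for 4 Rabs, beside 9.71% of all genes; Rab32 and Rab21 were the other two. Rab32 stood at 0.23 (SE 0.07, adjusted p = 0.0606), and passed by DESeq2 (0.0227), with at least 10 counts required in every library (0.0462) and without WT foamy replicate 1 (0.0461), and Rab21 at −0.16 (SE 0.07, adjusted p = 0.219).

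Both WT calls depended on single libraries. The Rab7b call was lost without WT non-foamy replicate 1 (adjusted p = 0.0591) or WT foamy replicate 2 (0.0594), and the Rab13 call without WT non-foamy replicate 1 (0.0797) or 4 (0.0992) and without WT foamy replicate 1 (0.0582) or 4 (0.0734). Without WT non-foamy replicate 3, which stood apart, both calls held, at 0.31 (adjusted p = 0.00215) for Rab7b and 0.71 (adjusted p = 0.00575) for Rab13.

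In Trem2-/- cells, cholesterol changed no Rab gene by edgeR or DESeq2. None of the 45 had an unadjusted p under 0.05 by edgeR, beside 918 of all 14237 genes. At large, 0.14% of all genes were called, 0.105% higher and 0.0351% lower. The libraries did not overlap for 2 Rabs, Rab30 and Rab39, beside 9.26% of all genes. In absolute terms the median Rab moved by 0.06 on the log2 scale in Trem2-/- cells, against 0.09 in WT cells. The median of all genes was 0.10 and 0.12 in the same order. In WT cells 5 Rabs had an unadjusted p under 0.05 by edgeR, beside 2341 of all 14237 genes. Rab7b changed by −0.07 and Rab13 by −0.02 in Trem2-/- cells, neither called.

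Whether the response itself differed between the genotypes was tested as an interaction. Of the 45 Rabs, 1 was called, Rab7b, or 2.22%, beside 3.64% of all genes (1.99% greater and 1.64% less in Trem2-/- cells). Rab7b responded less in Trem2-/- cells, with a difference of −0.33 on the log2 scale (SE 0.08, adjusted p = 0.0274). That call held in 12 of 21 alternatives, and over all 21 the value stayed between −0.38 and −0.31. It was lost without WT non-foamy replicate 1 or 4, WT foamy replicate 2, any of the 3 Trem2-/- non-foamy libraries, or Trem2-/- foamy replicate 1 or 3, where the adjusted p ran from 0.0524 to 0.0899. For Rab13 the difference was −0.61 (SE 0.21) and not called (adjusted p = 0.112), except without WT non-foamy replicate 3 (−0.73, adjusted p = 0.0386).

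**Figure D4:**
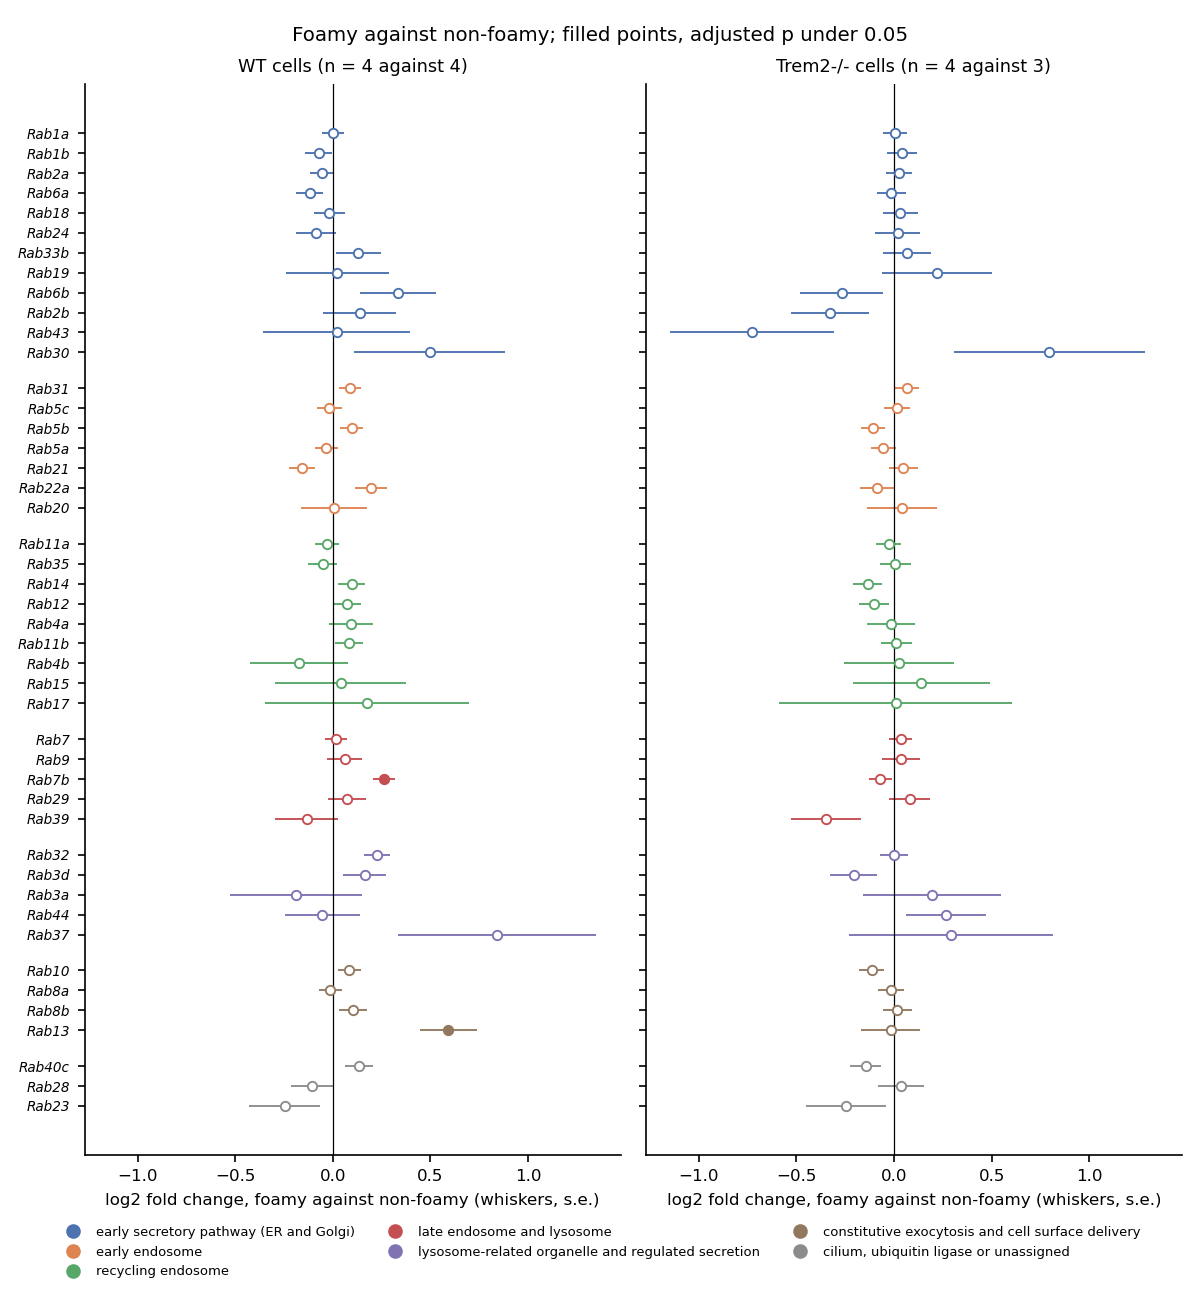
Log2 fold change of foamy against non-foamy cells (x axis; whiskers, SE) for the 45 tested Rab genes (y axis, grouped and coloured by compartment) in WT cells at left and Trem2-/- cells at right; filled points have an adjusted p under 0.05. Rab7b and Rab13 are filled in WT cells and no gene is filled in Trem2-/- cells.

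**Figure D5:**
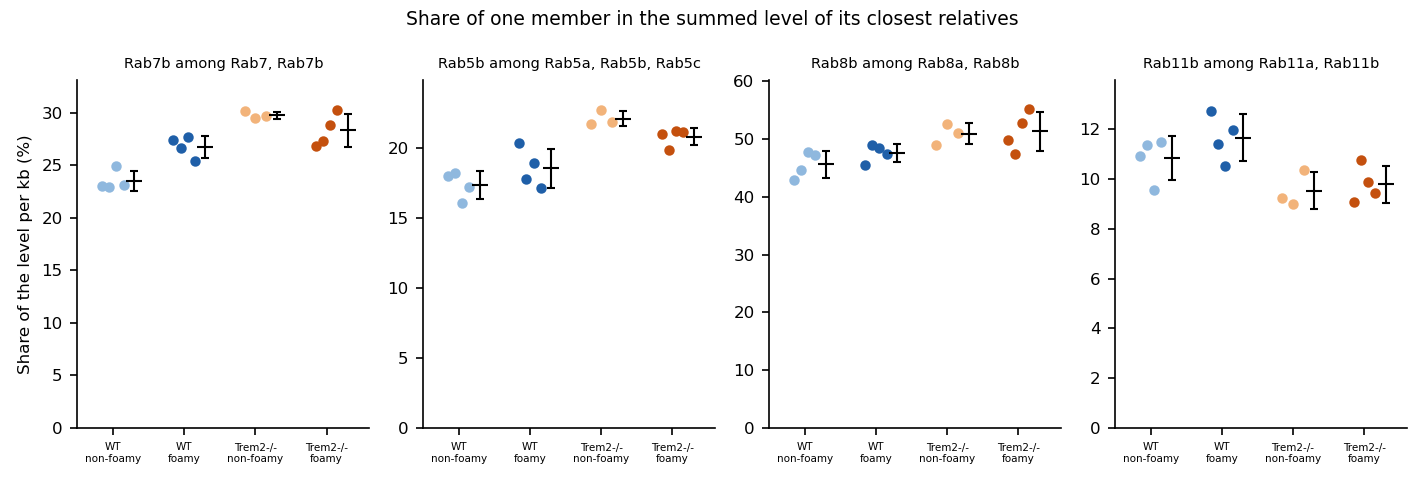
Share of Rab7b, Rab5b, Rab8b and Rab11b in the summed level per kb of their closest relatives (y axis, percent, from 0) in each library by group (x axis); the bar with whiskers is the group mean and SD. Rab7b goes from 23.5% in WT non-foamy to 29.8% in Trem2-/- non-foamy cells, Rab5b from 17.3% to 22.1% and Rab8b from 45.7% to 50.9%.

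The proteins that load, switch off and read out Rabs were followed with 4 lists holding 153 listed genes, 136 of them tested. In non-foamy Trem2-/- cells 42 were higher and 11 lower, that is 30.9% and 8.09%, beside 21.0% and 22.6% of all genes. With total counts the split was 24 higher and 19 lower, beside 1820 higher and 4379 lower of all 14237 genes. In foamy cells 22 were higher and 15 lower, beside 14.3% and 15.9% of all genes. Total counts gave 11 higher and 26 lower there, beside 1115 higher and 3666 lower of all genes. GTPase-activating proteins, which turn Rabs off, had 15 of 35 higher and 3 lower in non-foamy cells (8 and 6 with total counts), and 7 higher and none lower in foamy cells (3 and 7 with total counts, 7 and 3 by DESeq2). Exchange factors, which turn Rabs on, had 6 of 43 higher and 4 lower in non-foamy cells (3 and 7 with total counts) and 2 higher and 6 lower in foamy cells (2 and 9). Effectors had 18 of 49 higher and 3 lower in non-foamy cells (11 and 5 with total counts) and 9 and 8 in foamy cells (4 and 9). Of 10 genes for GDP dissociation, escort and prenylation, which keep Rabs soluble or attach their lipid anchors, 3 were higher and 1 lower in non-foamy and 4 and 1 in foamy cells (2 and 1 in each state with total counts).

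The greatest rises among these genes were in effectors. Rilpl2, a RILP-like protein that binds phosphorylated Rabs, was at 114 to 126 CPM in WT non-foamy and 219 to 250 CPM in Trem2-/- non-foamy libraries, a log2 fold change of 1.01 (SE 0.06, adjusted p = 4.26e-11). Plekhm2, an adaptor that couples lysosomes to kinesin through the related GTPase Arl8, went from 37.6 ± 1.43 to 72.7 ± 4.46 CPM (0.95, SE 0.08, adjusted p = 3.74e-09). Appl2, a Rab5 effector of signalling endosomes, went from 76.9 ± 1.52 to 134 ± 7.28 CPM (0.80, SE 0.06, adjusted p = 5.12e-10), and Myo5a, a myosin motor carried by several Rabs, from 308 ± 10.9 to 525 ± 15.2 CPM (0.77, SE 0.06, adjusted p = 8.55e-10). For each of these 4 genes every non-foamy Trem2-/- library lay above every non-foamy WT library. In foamy cells the groups also stood apart for Rilpl2 (0.745), Appl2 (0.47) and Myo5a (0.51), all called. Plekhm2 was called in foamy cells at 0.33 (SE 0.08, edgeR adjusted p = 0.00174), with overlapping groups. That call was lost with total counts (0.20, adjusted p = 0.134).

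The deepest fall among called genes of at least 1 CPM was in Lrrk2, the kinase that Rab29 recruits and that phosphorylates Rab8, Rab10 and Rab12. It measured 19.3, 20.6, 15.1 and 22.8 CPM in WT non-foamy, 18.9, 18.1, 18.7 and 16.2 in WT foamy, 7.61, 7.43 and 9.07 in Trem2-/- non-foamy, and 8.67, 8.78, 11.9 and 8.21 in Trem2-/- foamy libraries. Every Trem2-/- library was below every WT library, with log2 fold changes of −1.28 (SE 0.14, adjusted p = 1.05e-07) and −0.94 (SE 0.12, adjusted p = 5.04e-06). Falls in non-foamy cells were also called for 3 exchange factors, Trappc5, a subunit of the TRAPP complexes that act on Rab1 (−0.84, SE 0.10, adjusted p = 2.18e-07), Dennd4a, which acts on Rab10 (−0.63, SE 0.07, adjusted p = 6.8e-08), and Dennd2c, which acts on Rab9 (−0.52, SE 0.11, adjusted p = 0.000658). All 3 were lower in the foamy state too.

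Cholesterol raised 2 of the 136 genes in WT cells, or 1.47%, near the 1.66% of all genes that were higher, and none in Trem2-/- cells, where 0.14% of all genes were called. Plekhm2 rose from 37.6 ± 1.43 to 49.9 ± 6.22 CPM (0.41, SE 0.08, adjusted p = 0.00409) and Appl2 from 76.9 ± 1.52 to 90.5 ± 4.61 CPM (0.23, SE 0.06, adjusted p = 0.0251). In Trem2-/- cells the same genes changed by −0.21 (SE 0.08, adjusted p = 0.704) and −0.10 (SE 0.06, adjusted p = 0.851). The response differed between genotypes for both, by −0.62 (SE 0.11, adjusted p = 0.00296) and −0.33 (SE 0.08, adjusted p = 0.0286), and for Tbc1d5, a GTPase-activating protein that acts on Rab7, by −0.31 (SE 0.09, adjusted p = 0.043). Tbc1d5 went from 38.5 to 41.2 CPM without cholesterol to 44.3 to 48.8 CPM with it in WT libraries, and from 43.9 to 46.1 CPM to 40.8 to 42.7 CPM in Trem2-/- libraries. Neither Tbc1d5 response was itself called by edgeR (adjusted p = 0.0511 in WT and 0.835 in Trem2-/- cells). These 3 are 2.21% of the genes, beside 3.64% of all genes, and no listed gene was called with a greater response in Trem2-/- cells by edgeR (1 was by DESeq2). The Appl2 response in WT cells was lost without WT non-foamy replicate 1, 2 or 4 or WT foamy replicate 1 or 2 (adjusted p of 0.0549 to 0.104). It was also lost with only the compared libraries fitted (0.0886). The Appl2 interaction was lost without WT non-foamy replicate 1, WT foamy replicate 2, Trem2-/- non-foamy replicate 1 or 2 or Trem2-/- foamy replicate 1 or 2 (0.0529 to 0.1). Total counts (0.0518) and the replicate block (0.059) removed it too. The Tbc1d5 interaction was lost without any library other than WT non-foamy replicate 3 or WT foamy replicate 4 (0.0501 to 0.11). It was also lost with total counts (0.127), with no filter (0.151) and with the replicate block (0.0854), and held in 5 of 21 alternatives. Both the response and the interaction call of Plekhm2 held in every alternative fit.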

How the data were processed

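The 15 deposited tables held raw read counts per gene, 1 table a library. Per the study's methods, these counts came from the authors' CHURP run, in which featureCounts read HISAT2 alignments to GRCm38 after trimming by Trimmomatic; strand setting and handling of reads with several hits are not given in the sources used here. From the counts, genes were filtered with filterByExpr (minimum count 10), which left 14237 genes with 99.97% of counts, scaled by TMM (factors 0.918 to 1.11) and fitted with 4 group means over all 15 libraries by edgeR 4.0.16 (glmQLFit, glmQLFTest) in R 4.3.3. P-values were adjusted over all 14237 genes by Benjamini-Hochberg (threshold 0.05). The biological coefficient of variation was 10.2%. Levels are CPM from TMM library sizes; levels per kb divide by the union exon length of GENCODE M21, which includes retained introns and is approximate. Standard errors are the log2 fold change divided by the root of F. The fit was tested on simulated counts. No per-sample column was left unused.

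Alternatives were DESeq2 1.42.0, other scalings and filters, a replicate block, a minimum absolute log2 fold change of 0.5, the compared libraries alone, and leaving out each library; for the regulators, and for total scaling of the summed level, these were added after seeing the data. Members, compartments, motifs and gene lists were chosen with earlier results of these data known. Every member could be named; values in every library are given for those called in a cholesterol response or interaction, the 6 greatest called changes at 1 CPM or more of each genotype comparison and the highest Rab of each compartment, and for Lrrk2, which was chosen after its values were seen. From the lists of regulators, the 4 greatest rises and falls in non-foamy cells and any called in a cholesterol response or interaction were named. Promoter windows came from RefSeq (GRCm38.p6); 11 of the 59 members had none matched.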

Additional observations from a re-analysis of the deposited data

Results flagged for a closer look

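In 42 groups of 4 libraries of 14 Rab genes, a single library far from the other 3 was found in 2 groups, and chance gives about 1 in 20. Rab31 in Trem2-/- foamy replicate 3 was at 387 CPM, with the other libraries at 417 to 421. Rab9 in WT non-foamy replicate 3 was at 105 CPM, with the others at 81.8 to 85.0; this is also the library with the fewest counts and a higher ribosomal protein share, and without it the non-foamy genotype change of Rab9 was 0.70 (adjusted p = 8.08e-07) in place of 0.61.

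Rab7b responded differently to cholesterol in the genotypes, by −0.33 on the log2 scale in the interaction test of edgeR (adjusted p = 0.0274), as described in the report.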

How the results depend on the processing

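The Rabs called in non-foamy cells (16) became 3 once an absolute change of 0.5 or more was also required (log2) and 13 to 16 when a library was left out. The 6 foamy calls became 11 with total counts alone, 1 with the minimum fold change and 5 to 9 when a library was left out. The 2 WT cholesterol calls became 3 with DESeq2 or at least 10 counts in every library, 0 with only the compared libraries fitted, 1 with the minimum fold change and 0 to 2 when a library was left out, and the 1 interaction call became 0 with the minimum fold change and 0 to 2 when a library was left out. Counts of calls in the Trem2-/- cholesterol response stayed at 0 under all alternatives. Of regulators, the 2 WT cholesterol calls became 5 with DESeq2, 4 with no filter, 1 with only the compared libraries and 1 to 3 when a library was left out, and the 3 interaction calls became 8 with DESeq2, 1 with total counts and 1 to 4 when a library was left out. The causes were not tested beyond what each setting removes.

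Replicate numbers did not pair libraries: of 21 same-number pairs 1 correlated over 0.1 (range −0.105 to 0.143), and 4 of 15 libraries correlated best with their own number. With a replicate block there were 17 non-foamy, 6 foamy and 1 WT cholesterol call, and 0 in the Trem2-/- response and the interaction; of regulators 1 interaction call was left.

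Over 45 pairs of a Rab and a comparison that were called in at least 1 fit, alternatives gave 663 values, of which 588 kept direction and side of the threshold, 42 dropped below it and 32 passed it. Among these the sign turned in 1, Rab2a in foamy cells without WT foamy replicate 3 (0.001, from −0.03, neither called; −0.069 to 0.001 over all libraries left out). Pairs never called were not counted and turned too, as Rab7b in foamy cells with total counts (−0.04). Shares of the pool without division by length differed, as for recycling Rabs (14.5% against 10.2% over all libraries). Genes under 1 CPM are limited by depth, and replicates of a group differed by 5.75 to 43.3 chi-square units per gene, so none was a repeat deposit.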
